A study of Rattus norvegicus with 3 samples.

Results

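The genes described here are regulators of alternative splicing that act in striated muscle, followed across the cell classes of the rat heart and across WT, BMD and DMD libraries. The list held 10 genes, Rbm20, Rbm24, Rbfox1, Rbfox2, Mbnl1, Mbnl2, Celf1, Celf2, Ptbp1 and Qki. A gene was taken up when its symbol stood in the feature table, and 9 of the 10 were found among 22250 genes. Qki was not matched by its symbol and was not analysed here. Each of the 9 symbols belonged to 1 gene identifier.

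Sorted nuclei came from the apex of the heart of rats aged 12 months, with pieces of both ventricles and of the septum. The WT library came from wild-type rats, the BMD library from rats in which CRISPR had removed neighbouring exons of Dmd in frame, and the DMD library from rats lacking a single later exon of Dmd, which breaks the frame. The BMD line was made on outbred Sprague Dawley rats. These are models of Becker and Duchenne muscular dystrophy in which every cell, and not only muscle, carries the deletion. Each genotype had 1 library, and the labels do not give the number of animals behind it. A difference between genotypes cannot be told apart from a difference between animals or library preparations. In ratios over WT, the software version behind the counts differs too. No test between genotypes was therefore run, and all intervals are at 95% and cover counting error only.

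Pre-mRNA splicing joins exons, and the proteins of this list decide which exons are kept by binding short RNA motifs in and around them. In the heart, RBM20 represses exons of titin and of calcium-handling genes, RBFOX proteins bind UGCAUG, and MBNL and CELF proteins act on many of the same exons, often in opposite directions, as the fetal pattern gives way to the adult one. PTBP1 represses muscle exons and is low in differentiated muscle. The libraries count transcripts per gene, so they show the level of each regulator and not the splicing that it controls.

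The nuclei numbered 24664 in all. The libraries held 19215994 to 21609238 unique molecular identifiers (UMIs, counted transcripts), and the median nucleus held between 1213 and 1487. The pairs of libraries shared 12 to 20 nucleus barcodes. Clustering without the 9 genes gave 16 clusters, which were named from marker lists. The 9 groups compared each had at least 50 nuclei in every library. Cardiomyocyte-like nuclei numbered 4639 (2034 from WT, 1535 from BMD, 1070 from DMD) and raised 9 of the 9 cardiomyocyte markers found in the files. The other named groups were fibroblast-like (7430), macrophage-like (1981), pericyte-like or smooth muscle-like (1691), T, B or NK cell-like (1167), endothelial-like (1027, led by Dkk2, Sox17 and Gja5) and lymphatic-like nuclei (627). A pair of the compared groups kept only a number. Cluster 0 (3909 nuclei, led by Unc5c and Aplnr) raised 9 of 9 endothelial markers but had an adipocyte-list gene among its leading genes. Cluster 9 (602 nuclei, led by Nrg1 and Cgnl1) raised 8 of 9 endothelial markers but had endocardial genes in the lead. Clusters 6, 8 and 10 (300, 443 and 546 nuclei) also stayed unnamed and entered no comparison. Cluster 6, with 205 nuclei from DMD, was led by mitochondrial genes and closest to cardiomyocytes. Cluster 8 was mostly doublets, and cluster 10 raised under 3 markers of any list. Levels are UMIs of a gene per 1e6 UMIs of the class (CPM), a scale with no correction for gene length, so genes are not ranked against each other.

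Rbm20 (ENSRNOG00000014705), Rbm24 (ENSRNOG00000046547) and Rbfox1 (ENSRNOG00000002827) stood furthest above the next class in cardiomyocyte-like nuclei. Rbm20, the titin splicing repressor whose mutation causes dilated cardiomyopathy, had 6631 CPM in WT, 6882 in BMD and 6853 in DMD cardiomyocyte-like nuclei. Among the groups compared, T, B or NK cell-like nuclei came next. The levels were 6.06-fold above theirs in the mean over libraries, and the ranges over libraries did not overlap. After thinning each nucleus to 500 UMIs, 93.9%, 94.4% and 93.5% of cardiomyocyte-like nuclei had a UMI of Rbm20, against 5.85%, 12.2% and 8.58% of fibroblast-like nuclei. Unthinned, the shares were 99.1%, 99% and 99.2% against 13.5%, 30.6% and 20.6%, at median depths of 2761, 3765 and 3257 UMIs in cardiomyocyte-like and 1217, 1591 and 1356 in fibroblast-like nuclei.

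Rbm24, a splicing activator of muscle exons, had 367 CPM in WT, 341 in BMD and 359 in DMD cardiomyocyte-like nuclei, and its mean was 5.32-fold above that of T, B or NK cell-like nuclei. Rbfox1, the member of the RBFOX family found in neurons and striated muscle, had 1202, 669 and 780 CPM, and its mean was 6.47-fold above that of the next class. For none of the 3 genes did another of the compared groups reach the range over libraries of cardiomyocyte-like nuclei. Groups left out of the comparison had high levels too. In cluster 10, 88.8% of nuclei were Scrublet doublets. It had 904, 607 and 616 CPM of Rbfox1 in WT, BMD and DMD, and 5026, 5111 and 5001 CPM of Rbm20. Monocyte-like or neutrophil-like nuclei, 35 each in WT and BMD, had 4162, 2372 and 2078 CPM of Rbm20. That is 62.8%, 34.5% and 30.3% of its level in cardiomyocyte-like nuclei. The summed cardiomyocyte markers were at 69.6%, 46.3% and 28.3% on the same scale, and Scrublet called 25.6% of these nuclei doublets. The part of cardiomyocyte RNA from doublets or from outside the nuclei in these levels was not tested.

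**Figure D1:**
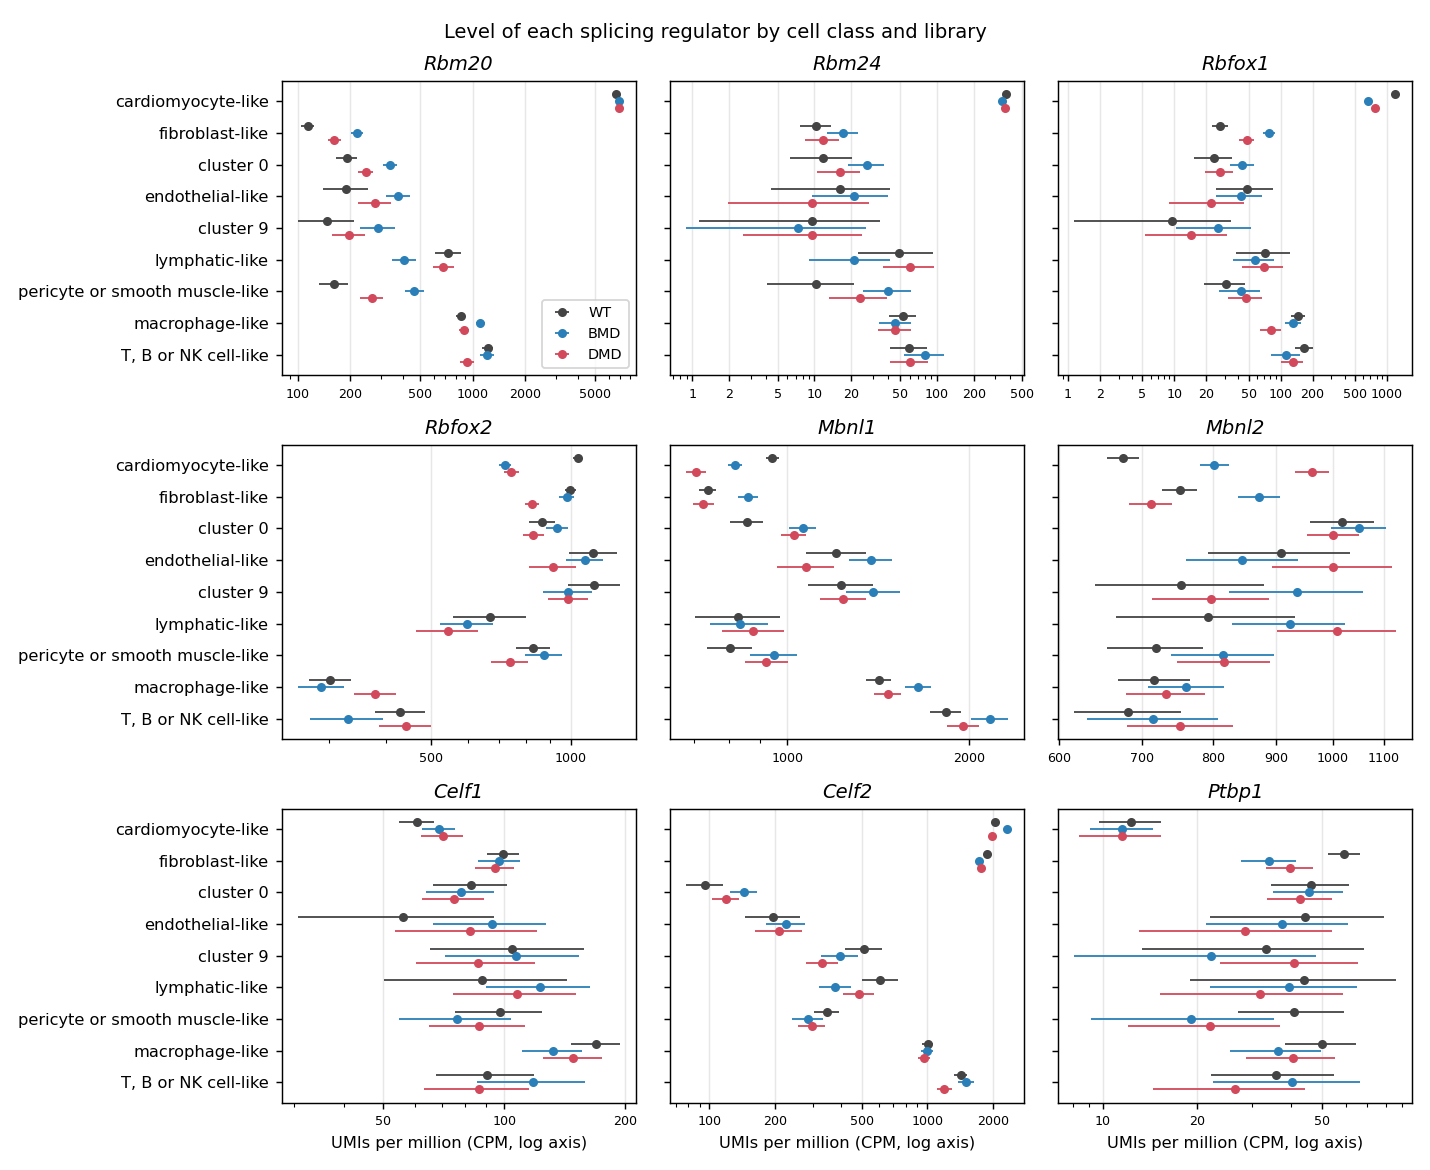
Level of each of the 9 splicing regulators (CPM, log axis, a different range in each panel) in 9 groups of nuclei, with 1 point per library and 95% Poisson intervals. Rbm20, Rbm24 and Rbfox1 are highest in cardiomyocyte-like nuclei in every library, with a mean at least 5.32-fold above the next group, and Ptbp1 is lowest there, between 11.5 and 12.3 CPM.

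Outside cardiomyocyte-like nuclei, the low levels of these 3 genes were set beside the RNA of barcodes with at most 50 UMIs, which stands for free RNA in the suspension. Free RNA held 2388, 2868 and 1646 CPM of Rbm20 in WT, BMD and DMD. Where all cardiomyocyte marker UMIs of a class are counted as free RNA, the share of free RNA in fibroblast-like nuclei was 4.66%, 5.41% and 6.97%. In T, B or NK cell-like nuclei it was 37.6%, 31.6% and 33.2%, which would give 898, 906 and 547 CPM of Rbm20. Measured there were 1218, 1211 and 929 CPM. The folds over this class given above were taken with free RNA left in. Doublets were kept, and any that hold a cardiomyocyte nucleus would count in the share of free RNA. Scrublet called 18.5% doublets in the larger T, B or NK cell-like cluster and 18.1% in macrophage-like nuclei. In the larger fibroblast-like cluster it called 0.61%. The part of doublets in these levels was not tested. In fibroblast-like nuclei the share of free RNA would give 111, 155 and 115 CPM of Rbm20, and 114, 218 and 162 were measured. Rbm24 was measured at 10.3, 17.1 and 11.6 CPM there, where free RNA would give 8.55, 16.0 and 15.3. The part of free RNA in the level of Rbm24 in fibroblast-like nuclei was not tested beyond these values.

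**Figure D2:**
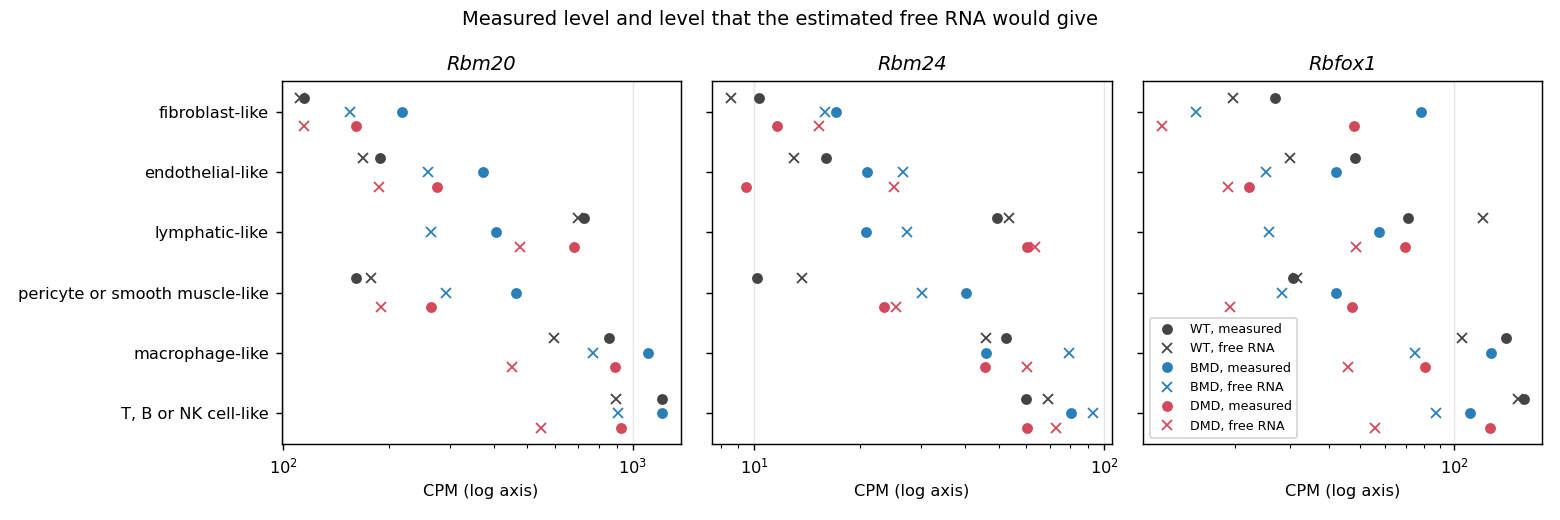
Measured level (circles) of Rbm20, Rbm24 and Rbfox1 in 6 named groups other than cardiomyocyte-like nuclei, and the level that the estimated free RNA would give (crosses), in CPM on a log axis, by library. In fibroblast-like nuclei Rbfox1 was measured at 78.4 CPM in BMD where free RNA would give 15, while Rbm24 was at 17.1 against 16.0.

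The other 6 genes were found across the heart. Rbfox2 (ENSRNOG00000004688), the broadly expressed RBFOX paralog, had means of 814 to 1036 CPM in 6 groups, from endothelial-like nuclei at the top to pericyte-like or smooth muscle-like nuclei, and each neighbour in this order overlapped the next. It was lower in lymphatic-like (603 CPM), T, B or NK cell-like (399) and macrophage-like nuclei (323). The step from pericyte-like or smooth muscle-like to lymphatic-like nuclei and the next step down were larger than the range over libraries.

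Mbnl1 (ENSRNOG00000014076), which promotes the adult splicing pattern, had its highest levels in immune nuclei. Its level was 1828 to 2162 CPM in T, B or NK cell-like and 1415 to 1644 CPM in macrophage-like nuclei, ranges that overlapped neither each other nor those of the classes below. Cardiomyocyte-like and fibroblast-like nuclei stood at the bottom of the order, with means of 824 and 775 CPM and overlapping ranges. Its paralog Mbnl2 (ENSRNOG00000010737) varied little, from a mean of 1022 CPM in cluster 0 to 717 CPM in T, B or NK cell-like nuclei. From endothelial-like nuclei downward all neighbours in the order of Mbnl2 overlapped.

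Celf2 (ENSRNOG00000023661), a regulator that often opposes MBNL, had 2042 CPM in WT, 2313 in BMD and 1980 in DMD cardiomyocyte-like nuclei. Fibroblast-like nuclei followed with 1730 to 1880 CPM, and T, B or NK cell-like nuclei with 1196 to 1511, and none of these ranges overlapped. In cluster 0 it was at 95.4 to 143 CPM, so the mean of cardiomyocyte-like nuclei was 17.7-fold higher. Celf1 (ENSRNOG00000010379), its broadly expressed paralog, had its highest mean in macrophage-like nuclei (150 CPM) and its lowest in cardiomyocyte-like nuclei (66.6 CPM), and the latter overlapped endothelial-like nuclei.

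Among the groups compared, Ptbp1 (ENSRNOG00000010448), the repressor of muscle exons, was lowest in cardiomyocyte-like nuclei. It was at 12.3 CPM (9.69 to 15.3) in WT, 11.5 (9.11 to 14.4) in BMD and 11.5 (8.37 to 15.4) in DMD. The next lowest group, pericyte-like or smooth muscle-like nuclei, had 19.1 to 40.8 CPM, so the ranges over libraries did not overlap. That group had 28, 10 and 14 UMIs of Ptbp1 in WT, BMD and DMD. Its counting intervals overlapped those of cardiomyocyte-like nuclei in BMD (9.17 to 35.2) and DMD (12.0 to 36.9), but not in WT (27.1 to 59.0). The other groups had means of 32.0 to 44.9 CPM, and neighbours among them overlapped.

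The comparison of genotypes in cardiomyocyte-like nuclei asks which regulators differ between a heart with truncated dystrophin, a heart without it and a healthy one. The 3 libraries had 6364321, 6673713 and 3920974 UMIs in these nuclei. A gene was called when its ratio passed 1.5-fold with an interval off 0 on the log2 scale, among genes with at least 50 UMIs over the libraries compared, a minimum that all 9 members passed. In BMD over WT, 1 of 9 members was called, against 16.1% of 9685 genes. In DMD over WT, 1 of 9 was called, against 17.9% of 9344 genes, and in DMD over BMD 0 of 9, against 10.3% of 9421 genes. The median log2 ratio of the 9 members was -0.09, -0.04 and 0.03 in these comparisons, and that of all genes -0.06, -0.04 and 0.01. The first 2 comparisons share the WT library.

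The called member was Rbfox1 in both comparisons with WT. It had 1202 CPM (1175 to 1229) in WT, 669 (649 to 689) in BMD and 780 (752 to 808) in DMD. The log2 ratio over WT was -0.85 (-0.90 to -0.79) in BMD and -0.62 (-0.69 to -0.56) in DMD, a level 1.80-fold and 1.54-fold lower. Of all genes, 3.74% lay below it in BMD over WT and 8.93% in DMD over WT. After thinning to 500 UMIs, 42.8% of WT cardiomyocyte-like nuclei (40.6 to 45.0) had a UMI of Rbfox1, against 26.6% (24.4 to 28.9) in BMD and 32.4% (29.6 to 35.3) in DMD. WT was the highest library, and BMD and DMD differed from each other by a log2 ratio of 0.22 (0.15 to 0.29), DMD being higher.

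Rbfox2 stood just inside the 1.5-fold limit. It had 1035 CPM in WT, 721 in BMD and 745 in DMD, with log2 ratios over WT of -0.52 (-0.57 to -0.47) and -0.47 (-0.54 to -0.41). Both mutant libraries were below WT, and BMD and DMD overlapped within counting error (log2 ratio 0.05, -0.02 to 0.11). The share of Rbfox1 in the summed UMIs of the 2 RBFOX genes was 53.7% in WT, 48.1% in BMD and 51.1% in DMD.

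The MBNL genes differed in opposite directions. Mbnl1 had 945 CPM (921 to 969) in WT, 820 (799 to 842) in BMD and 706 (680 to 732) in DMD. Mbnl2 had 676 CPM (656 to 696) in WT, 802 (780 to 823) in BMD and 962 (932 to 993) in DMD. For both genes BMD lay between WT and DMD, and the intervals of the 3 libraries were separate. In DMD over WT the log2 ratio was -0.42 for Mbnl1 (-0.49 to -0.36) and 0.51 for Mbnl2 (0.45 to 0.57), both inside 1.5-fold. The share of Mbnl1 in the summed UMIs of the pair was 58.3% (57.3 to 59.3) in WT, 50.6% (49.6 to 51.5) in BMD and 42.3% (41.1 to 43.5) in DMD. Since both counts come from the same nuclei, this share does not depend on the scaling of the libraries. In fibroblast-like nuclei it was 49.6%, 49.7% and 50.5%, with overlapping intervals, and in macrophage-like nuclei 66.4%, 68.4% and 66.7%. In endothelial-like nuclei it was 57.0% (52.7 to 61.3), 61.9% (58.8 to 65.0) and 51.8% (47.9 to 55.6), so only BMD and DMD had separate intervals. In cluster 0 it was 45.7% (43.5 to 47.9), 50.3% (48.4 to 52.1) and 50.6% (48.9 to 52.3), with WT the lowest. The libraries thus differed in endothelial-like nuclei and cluster 0 too, in other orders. In lymphatic-like nuclei the share was 51.2% (45.3 to 57.0), 47.5% (43.6 to 51.3) and 46.6% (42.5 to 50.7). That is the order of cardiomyocyte-like nuclei, with overlapping intervals. In free RNA Mbnl1 also fell from WT to BMD to DMD (1021, 721 and 564 CPM), with Mbnl2 at 501, 599 and 586 CPM. The part of free RNA in these shares was not tested.

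**Figure D3:**
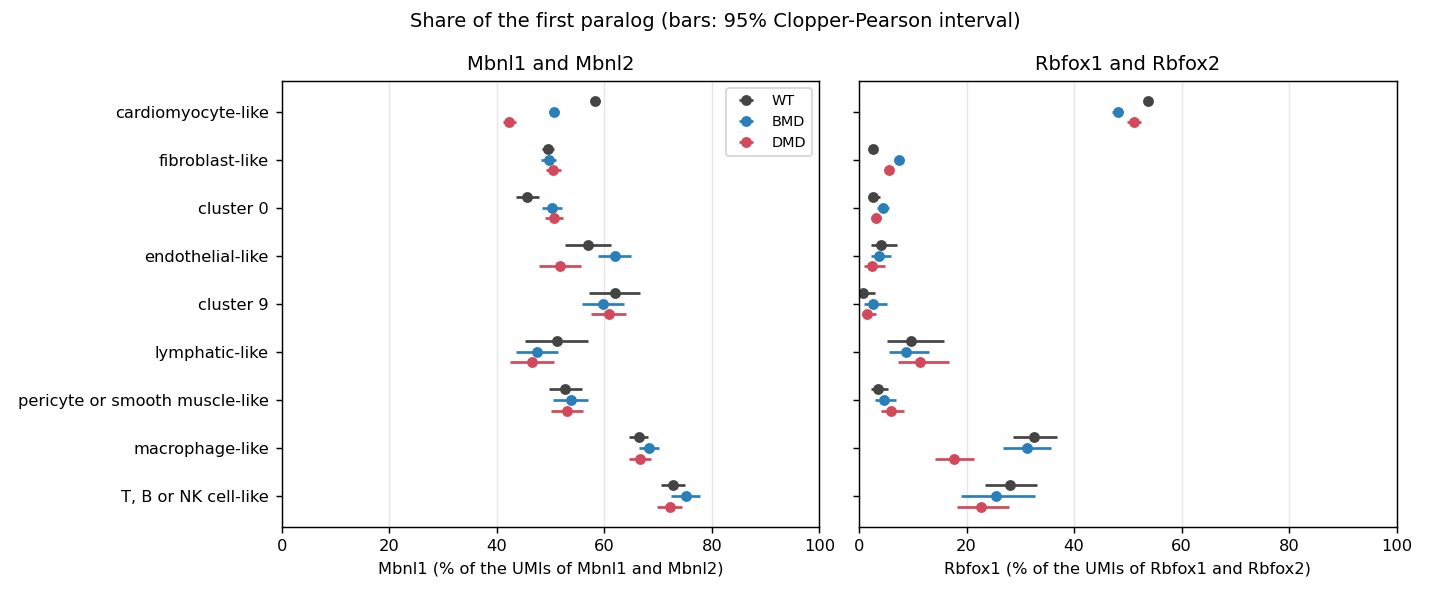
Share of Mbnl1 in the UMIs of Mbnl1 and Mbnl2 (left) and of Rbfox1 in those of Rbfox1 and Rbfox2 (right), in percent with 95% Clopper-Pearson intervals, by group of nuclei and library. In cardiomyocyte-like nuclei the Mbnl1 share is 58.3% in WT, 50.6% in BMD and 42.3% in DMD, while in fibroblast-like nuclei it is 49.6% to 50.5%.

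Over all cardiomyocyte-like nuclei, Rbm20 and Rbm24 differed little between genotypes. The log2 ratio of Rbm20 over WT was 0.05 (0.03 to 0.07) in BMD and 0.05 (0.03 to 0.07) in DMD, and in DMD over BMD it was -0.01 (-0.03 to 0.02). That of Rbm24 was -0.11 (-0.19 to -0.02) in BMD and -0.03 (-0.13 to 0.07) in DMD. These narrow intervals cover counting only, since the spread from rat to rat was not measured.

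The CELF genes and Ptbp1 were also inside 1.5-fold. The log2 ratio of Celf2 was 0.18 (0.15 to 0.21) in BMD over WT and -0.04 (-0.09 to -0.0039) in DMD over WT, so BMD was the highest library. Celf1 had 60.7, 68.8 and 70.4 CPM in WT, BMD and DMD, with intervals of both ratios over WT that held 0. The intervals of Ptbp1 ran from -0.56 to 0.39 in BMD over WT and from -0.66 to 0.45 in DMD over WT, and with 45 to 78 UMIs per library a difference of the size of that of Mbnl1 was not detectable at this depth.

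**Figure D4:**
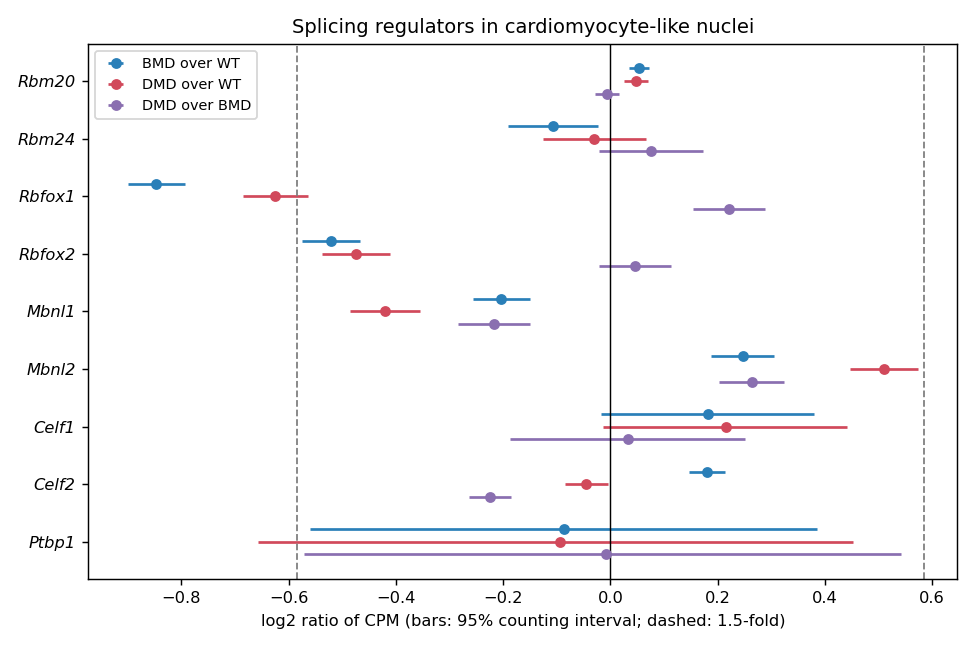
log2 ratio of CPM between libraries for the 9 splicing regulators in cardiomyocyte-like nuclei, with 95% counting intervals, a solid line at equal levels and dashed lines at 1.5-fold. Rbfox1 lies past 1.5-fold in BMD over WT (-0.85) and DMD over WT (-0.62), and no member does in DMD over BMD.

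Cardiomyocyte-like nuclei split into 2 clusters at a finer Leiden resolution of 1.0, again built without the members. The first was led by Xirp2, Nppb and Nppa, a cardiac stress pattern, and the second by Dhrs7c, Ky and Grid1, with Myh6, the fast myosin of the adult rat heart, and Rbfox1 among its 10 leading genes. In WT 60.9% of cardiomyocyte-like nuclei (58.7 to 63.0) lay in the Dhrs7c-led cluster, against 7.06% (5.83 to 8.46) in BMD and 9.71% (7.99 to 11.6) in DMD. WT gave 85.4% of its nuclei, so it may be a feature of the WT library as much as a type of cell, and these cannot be told apart.

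Rbfox1 was higher in the Dhrs7c-led cluster within each library. It had 1375 CPM there against 913 in the Xirp2-led cluster in WT, 1051 against 646 in BMD and 1020 against 763 in DMD. The log2 ratios between the clusters were 0.59 (0.52 to 0.66) in WT, 0.70 (0.55 to 0.85) in BMD and 0.42 (0.26 to 0.58) in DMD. Within each cluster WT was still the highest library, but the difference was smaller than over all cardiomyocyte-like nuclei. In the Xirp2-led cluster the log2 ratio over WT was -0.50 (-0.58 to -0.42) in BMD and -0.26 (-0.34 to -0.18) in DMD, and in the Dhrs7c-led cluster -0.39 (-0.53 to -0.24) and -0.43 (-0.59 to -0.28). Rbfox1 was thus inside 1.5-fold in either cluster, with intervals off 0. The part of the makeup of the libraries in the call over the whole class was not tested.

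The log2 ratio between the clusters was 0.09, 0.21 and 0.17 for Rbfox2 and 0.19, 0.05 and 0.01 for Mbnl1 in the same libraries. For Mbnl2 it was -0.21, -0.36 and 0.06. Rbfox2 had 994, 715 and 736 CPM in WT, BMD and DMD in the Xirp2-led cluster and 1058, 829 and 830 in the Dhrs7c-led one. WT was the highest library in both. The share of Mbnl1 in its pair was 54.0%, 50.2% and 42.6% in WT, BMD and DMD in the Xirp2-led cluster. It was 60.8%, 57.2% and 41.7% in the Dhrs7c-led one. The BMD share in the latter rests on 336 UMIs of Mbnl1 and 251 of Mbnl2. The interval of Mbnl2 in BMD over WT held 0 there (log2 ratio -0.01, -0.21 to 0.17), and Mbnl1 was at -0.22 (-0.39 to -0.06). In the Xirp2-led cluster these ratios were 0.14 (0.06 to 0.22) for Mbnl2 and -0.09 (-0.16 to -0.01) for Mbnl1. Both were smaller than the 0.25 and -0.20 over all cardiomyocyte-like nuclei. In the Dhrs7c-led cluster Mbnl2 had 639, 633 and 991 CPM, past 1.5-fold in DMD over WT (log2 ratio 0.63, 0.47 to 0.79), with only 108 BMD and 103 DMD nuclei. Rbm24 had 367 CPM in WT and 265 in BMD there (log2 ratio -0.47, -0.77 to -0.19), on 105 UMIs in BMD. In the Xirp2-led cluster its ratio of BMD over WT was -0.09 (-0.21 to 0.02).

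**Figure D5:**
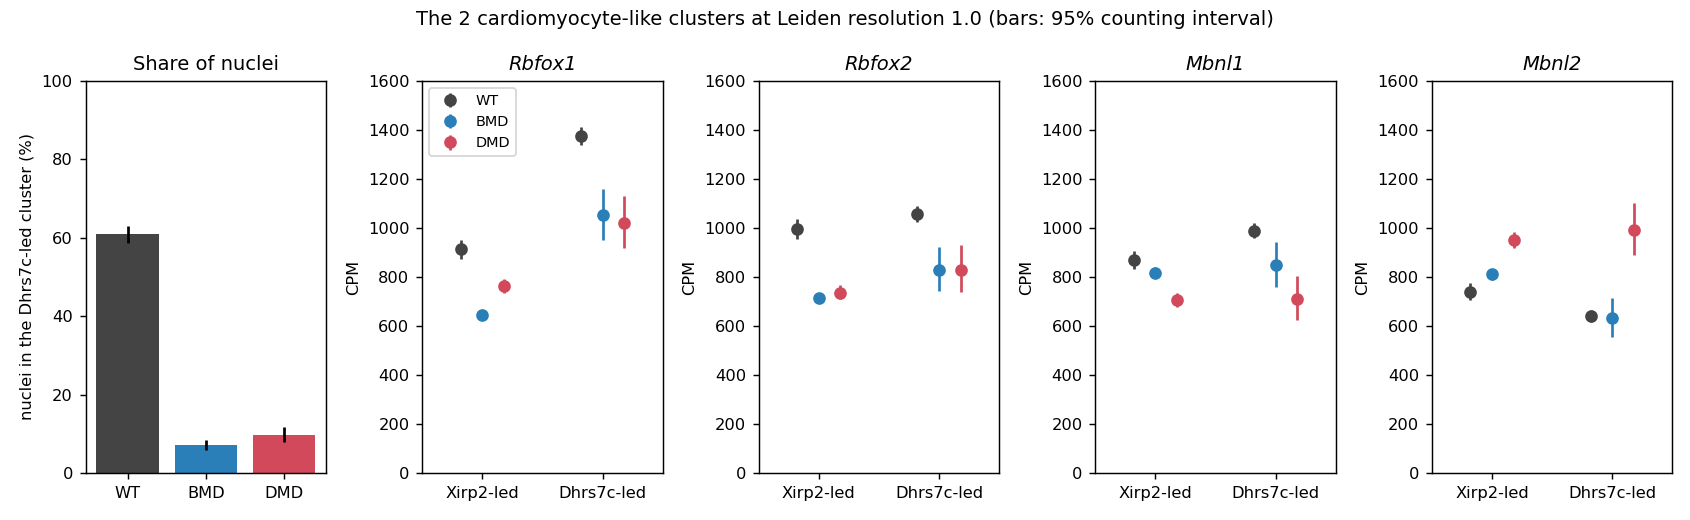
Share of cardiomyocyte-like nuclei in the Dhrs7c-led cluster (left, percent with 95% Clopper-Pearson intervals), and levels of Rbfox1, Rbfox2, Mbnl1 and Mbnl2 in CPM in both clusters, with 95% Poisson intervals, by library. The share is 60.9% in WT and below 10% in BMD (7.06%) and DMD (9.71%), and Rbfox1 is higher in the Dhrs7c-led cluster in each library.

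Markers of other cell types were also summed in cardiomyocyte-like nuclei. The summed level of the 9 fibroblast markers was 206, 144 and 376 CPM in WT, BMD and DMD, against 14297, 11121 and 16241 CPM in fibroblast-like nuclei. That of the 9 endothelial markers was 115, 176 and 207 CPM, and no marker of either list was at 0. The 10 pericyte or smooth muscle markers summed to 1006, 1009 and 686 CPM. The 10 macrophage markers summed to 80.6, 67.7 and 104 CPM. The 10 endocardial markers were at 744, 1007 and 1137 CPM, higher in both mutant libraries, the 10 Schwann markers at 260, 510 and 324, and the 10 T, B or NK cell markers at 359, 306 and 242, against 4116, 4855 and 4276 in their own class. The lymphatic list summed to 247, 219 and 173 CPM, the adipocyte list to 712, 604 and 464 (2 of 10 at 0), the monocyte or neutrophil list to 30.3, 30.3 and 83.4 (1 of 9 at 0) and the mesothelial list to 1.73, 5.09 and 2.55 (4 of 9 at 0). The part of these in the differences above was not tested. The targeted gene Dmd had 16445, 20532 and 19433 CPM, and its deletions do not show in a count per gene.

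In fibroblast-like nuclei Rbm20, Rbm24, Rbfox1 and Ptbp1 passed the limit in at least 1 comparison. In BMD over WT, 4 of 9 members were called, against 14.6% of 10089 genes, with Rbm20, Rbm24 and Rbfox1 higher and Ptbp1 lower. The call of Rbm24 rested on 50 UMIs in WT and 50 in BMD, and was lost with free RNA subtracted. In DMD over WT, 1 of 9 was called (Rbfox1, higher), against 9.82% of 10200 genes. In DMD over BMD, 1 of 9 was called (Rbfox1, lower), against 8.40% of 9693 genes. Both Rbm20 and Rbm24 were highest in BMD as measured and as free RNA would give. With free RNA subtracted, the log2 ratio of Rbm20 over WT went from 0.94 to 4.48 in BMD and from 0.50 to 4.08 in DMD, since 111 of 114 CPM were subtracted in WT, and that of Rbm24 in BMD over WT went from 0.73 to -0.61. The sizes of these ratios, and the direction of that of Rbm24, thus rest on the estimate of free RNA.

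Higher levels in BMD were also seen outside fibroblast-like nuclei. In cluster 0, 4 of 9 members were called in BMD over WT, against 9.97% of 6958 genes, all higher. The log2 ratios there were 0.82 (0.58 to 1.06) for Rbm20, 1.18 (0.24 to 2.22) for Rbm24, 0.88 (0.19 to 1.60) for Rbfox1 and 0.59 (0.24 to 0.94) for Celf2. For Rbm20 the ratio of BMD over WT was 1.52 (1.19 to 1.86) in pericyte-like or smooth muscle-like, 0.99 (0.51 to 1.49) in endothelial-like and 0.97 (0.35 to 1.62) in cluster 9 nuclei, and -0.84 (-1.19 to -0.49) in lymphatic-like nuclei. Free RNA would give 178 (WT) and 293 (BMD) CPM of Rbm20 in pericyte-like or smooth muscle-like nuclei, where 162 and 465 were measured. For endothelial-like nuclei it would give 169 and 259, with 189 and 373 measured. For lymphatic-like nuclei it would give 696 and 265, with 725 and 405 measured. The share of free RNA in cluster 0 was 7.65% in WT and 8.48% in BMD. The summed cardiomyocyte markers were there at 3.81% and 5.30% of their level in cardiomyocyte-like nuclei. On the same scale Rbm20 was at 2.88% and 4.88% and Rbm24 at 3.22% and 7.86%. Rbfox1 was at 1.97% and 6.50%, and Celf2 at 4.67% and 6.19%. The part of free RNA in the ratios of these groups was not tested.

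Rbfox1 in fibroblast-like nuclei had 26.8 CPM (22.4 to 31.9) in WT, 78.4 (68.6 to 89.2) in BMD and 48.0 (40.9 to 55.9) in DMD. Free RNA would give 19.8, 15 and 11.7 CPM. The log2 ratio over WT was 1.55 (1.23 to 1.87) in BMD and 0.84 (0.50 to 1.18) in DMD, and with free RNA subtracted it was 3.17 and 2.39. The UMIs were thinly spread, with 103 WT, 144 BMD and 122 DMD nuclei holding one, and at most 9 UMIs in a nucleus. Thinned to 500 UMIs, the shares of nuclei with a UMI were 1.19% (0.86 to 1.61) in WT, 3.46% (2.63 to 4.46) in BMD and 2.03% (1.49 to 2.70) in DMD.

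Rbfox1 was also set beside Rbm20. In barcodes with at most 50 UMIs, Rbfox1 made up 15.1% of the UMIs of both genes in WT, against 8.83% in BMD and 9.25% in DMD. Its share in cluster 0 was 11%, 11.5% and 9.85%. In fibroblast-like nuclei it made up 19.0% (16.2 to 22.2), 26.4% (23.5 to 29.5) and 22.9% (19.9 to 26.1). The part of free RNA in the Rbfox1 level was not tested beyond these values.

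At resolution 1.0, Rbfox1 was highest in BMD and DMD in a fibroblast-like cluster led by Ccn5, Cacna2d3 and Pi16. It had 39.2, 122 and 85.6 CPM there in WT, BMD and DMD, against 20.7, 43.8 and 25.6 in the cluster led by Abca8a. Within the Ccn5-led cluster the log2 ratio over WT was 1.64 (1.05 to 2.28) in BMD and 1.13 (0.51 to 1.78) in DMD. In the Abca8a-led cluster it was 1.08 (0.56 to 1.60) in BMD and 0.31 (-0.23 to 0.84) in DMD. The Ccn5-led cluster took 11.3% of fibroblast-like nuclei from WT, against 40.1% from BMD and 31.8% from DMD. A small cluster led by Tnc had 60.5, 56.7 and 78.4 CPM of Rbfox1, with overlapping intervals.

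Ptbp1 in fibroblast-like nuclei had 59.0 CPM (52.4 to 66.3) in WT, 33.9 (27.5 to 41.3) in BMD and 39.6 (33.2 to 46.8) in DMD. WT was the highest library, with a log2 ratio of -0.80 (-1.15 to -0.47) in BMD over WT and -0.58 (-0.88 to -0.28) in DMD over WT, the latter at 1.49-fold. In the Abca8a-led cluster it had 55.1, 28.4 and 35.6 CPM and in the Ccn5-led cluster 60.2, 31.2 and 39.2, so both had the same order. Rbfox1 in macrophage-like nuclei had 146, 131 and 80.8 CPM, where free RNA would give 106, 74.8 and 46.0, in the same order of libraries.

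The genes that work beside the members were given by lists. Of 23 paralogs and relatives, 13 passed the minimum in cardiomyocyte-like nuclei, and 3 were called, all higher, in BMD and in DMD over WT. That is 23.1% in each, beside 16.1% and 17.9% of all genes. They were Ptbp3, a paralog of Ptbp1 (8.64, 16.9 and 23.0 CPM in WT, BMD and DMD), Raver2, a partner of PTB proteins (3.46, 7.49 and 7.65 CPM) and Celf6 (9.11, 16.2 and 17.3 CPM). The median log2 ratio of this list was -0.04 in BMD and 0.02 in DMD, beside -0.06 and -0.04 for all genes. All 3 rest on few UMIs, from 22 to 58 in WT.

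The general splicing machinery was read against the same 16.1% and 17.9% of all genes, with no test of the difference. Of 20 SR proteins and kinases that passed, 0 were called in BMD over WT and 1 in DMD over WT, and of 20 hnRNPs 0 in each. Of 30 core spliceosome genes, 2 were called in BMD and 1 in DMD, all lower. These single genes were named after their values were seen. Srsf7 had a log2 ratio of 0.65 (0.48 to 0.82) in DMD over WT, U2af2 and Rbm39 of -0.76 (-1.05 to -0.47) and -0.63 (-0.83 to -0.43) in BMD over WT, and Prpf31 of -1.02 (-2.0 to -0.13) in DMD over WT. In DMD over BMD, 0 genes of these 3 lists and 0 of 13 paralogs were called.

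Among genes whose transcripts the members are known to splice in heart, 23 of 25 were found in the files. In BMD over WT, 3 of 23 tested were higher by the call and 0 lower, and in DMD over WT 4 of 22 higher and 0 lower. These are 13% and 18.2%, near the 16.1% and 17.9% of all genes, so the counts are no result about the list. Enah, an actin regulator, had 815, 1791 and 2361 CPM in WT, BMD and DMD, with log2 ratios over WT of 1.14 and 1.53. Pdlim5, a Z-disc protein, had 2236, 3926 and 5091 CPM, with log2 ratios of 0.81 and 1.19. Kcnip2, the partner of the transient outward potassium channel, had 7.54, 13 and 13.5 CPM, with log2 ratios of 0.79 and 0.84. Pdlim3, chosen after its values were seen, was called in DMD over WT (1283 against 2429 CPM, log2 ratio 0.92) and was the 1 gene of this list called in DMD over BMD, where 0.66 was the log2 ratio. The median of the list was 0.07 in BMD and 0.08 in DMD over WT, beside -0.06 and -0.04 for all genes. These are levels of transcripts and say nothing of their exons.

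The genes whose levels ran most like each member were found by Pearson's r of log2(CPM + 5) over 27 points, 9 groups in each of 3 libraries, among 9331 genes with at least 500 UMIs. The points share libraries and free RNA, so r is a description. Rbm20 was most like Mybpc3 (r = 0.99), Tnnt2 (0.99) and Ldb3 (0.99), Rbm24 most like Nrap (0.98), Actn2 (0.98) and Casq2 (0.98), and Rbfox1 most like Atp2a2 (0.97), Pde4dip (0.96) and Slc16a1 (0.96). Celf2 was most like Gria3 (0.93), Foxp2 (0.92) and Lpar1 (0.91). Mbnl1 was most like Stk17b (0.90), Arpc2 (0.87) and Tmem154 (0.86). For Ptbp1 these were RT1-A1 (0.88), Rpsa (0.88) and Zfp36l2 (0.88), and for Rbfox2 Wwtr1 (0.87), Zfyve9 (0.87) and Nfib (0.87). The weakest likenesses were those of Celf1, to B4galt5 (0.84), Rnf13 (0.83) and Atp2b1 (0.83), and of Mbnl2, to Phactr2 (0.77), Tspan9 (0.75) and Magi3 (0.75).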

How the data were processed

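Single-nucleus RNA-seq used the 10x Genomics 3′ v3.1 kit. Per the submitters' processing notes and methods, the authors aligned reads to rn6 and made the deposited UMI counts with Cell Ranger. WT counts were read from an aggregate, by barcode suffix, and BMD and DMD counts from their own tables. The Cell Ranger version named with the WT counts is not the one named with the mutant counts. Source and version thus separate WT from both mutants in every ratio over WT. A planned setting took BMD and DMD from the aggregate as well, but the part of the version was not tested. The aggregate was thinned to even depth, and holds 76.1% of the UMIs of BMD and 92.9% of those of DMD. Depths given for WT come from this aggregate, while those for BMD and DMD come from counts without this thinning. The deepest barcodes of each library counted as nuclei, as many as the methods give. No doublet or mitochondrial filter was applied. Nuclei were clustered together with scanpy 1.11.5 (2000 variable genes, 30 principal components, 15 neighbours, Leiden resolution 0.5) without batch integration, the members, mitochondrial genes and cardiomyocyte genes that the study names.

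A cluster was named when at least 3 markers were at least 2-fold raised (CPM plus 5) and no other class led its 10 top genes. Clusters led by mitochondrial genes, or with over 50% Scrublet doublets, stayed unnamed, which was decided on seeing them. Counts were summed by class and library. Intervals are exact Poisson (CPM), Clopper-Pearson (shares) and conditional binomial (ratios), at 95%, from scipy 1.17.1. Only the ratio intervals were run on simulated counts, for BMD over WT in cardiomyocyte-like nuclei. Those counts were Poisson, as the interval assumes, so the run says nothing of spread between nuclei or rats. TMM factors came from edgeR 4.0.16.

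All members were named. Of each other list, at most 4 genes past 1.5-fold on the same side in both comparisons with WT were named, by the ratio nearer 0, and for each member the 3 genes most like it. The members and lists were chosen with earlier results of these data known. Alternatives changed nuclei, clustering, scaling, free RNA, fold and minimum.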

Additional observations from a re-analysis of the deposited data

Results flagged for a closer look

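Rbfox1 differed from WT in opposite directions in cardiomyocyte-like and fibroblast-like nuclei. In cardiomyocyte-like nuclei its log2 ratio was -0.85 in BMD over WT and -0.62 in DMD over WT, and in fibroblast-like nuclei it was 1.55 and 0.84. It was also past 1.5-fold in cluster 0 in BMD over WT (0.88, 0.19 to 1.60) and in macrophage-like nuclei in DMD over WT (-0.85, -1.26 to -0.46). With 1 library per genotype, the difference between the classes was not tested. The fibroblast-like level rests on 130, 229 and 165 UMIs in WT, BMD and DMD, against 7651, 4462 and 3057 in cardiomyocyte-like nuclei. With free RNA subtracted the ratios in fibroblast-like nuclei were 3.17 and 2.39, with 19.8 of 26.8 CPM subtracted in WT.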

How the results depend on the processing

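No paired analysis was possible because each genotype has 1 library, and no replicate could be left out. In cardiomyocyte-like nuclei the count of members past 1.5-fold was 1 in BMD over WT, 1 in DMD over WT and 0 in DMD over BMD, and Rbfox1 was the gene called under each of the planned settings that changed nuclei, clustering or scaling within the class, free RNA or the aggregate. With all nuclei of a library the count in BMD over WT was 0. At the lower fold limit the counts over WT were 2 in BMD and 4 in DMD. In the Xirp2-led cluster alone, chosen after the data were seen, both counts over WT were 0, and in the Dhrs7c-led cluster the called genes were Celf1 in BMD over WT and Mbnl2 in DMD over WT, with a count of 1 in DMD over BMD. In fibroblast-like nuclei the count in BMD over WT fell from 4 to 3, with Rbm24 lost, without nuclei over 5% mitochondrial UMIs, with free RNA subtracted and with at least 200 UMIs per gene. The count there in DMD over WT was 2 with at least 1000 UMIs, at resolution 1.0 and with the members in the clustering, and 3 with free RNA subtracted and at the lower fold limit. In DMD over BMD it was 2 with at least 1000 UMIs and at the lower fold limit. Rbm24 in fibroblast-like nuclei reversed in BMD over WT with free RNA subtracted (log2 ratio -0.61), and in DMD no Rbm24 remained after it, so no value could be given. The same subtraction moved Rbm20 to 4.48 in BMD over WT and 4.08 in DMD over WT, and Rbfox1 to 3.17 and 2.39. The causes were not tested. The log2 ratio of Rbfox1 in cardiomyocyte-like nuclei ran from -0.85 to -0.58 in BMD over WT and from -0.91 to -0.61 in DMD over WT over the planned settings, with all nuclei at the outer or inner end. Of 457 log2 ratios over all settings, 393 stayed within the counting interval, 63 moved out of it and 1 reversed. A change of sign counted as a reversal only for a called ratio. Uncalled ratios in cardiomyocyte-like nuclei also changed sign. In DMD over BMD, that of Rbfox1 went from 0.22 to -0.33 with all nuclei. That of Ptbp1 kept its sign in 7 of 11 planned settings. The named class with the highest level was the same in 73 of 81 cases.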

Other observations

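Schwann-like nuclei (130, raising 8 of 10 Schwann markers) had fewer than 50 nuclei in BMD and in DMD and entered no comparison. Celf2 had its highest levels there, at 3437 CPM (3048 to 3861) in WT, 2904 (2456 to 3410) in BMD and 2368 (1963 to 2831) in DMD, above the 1980 to 2313 CPM of cardiomyocyte-like nuclei in WT and BMD. In DMD the interval rests on 120 UMIs.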
